A study of Mus musculus with 6 samples.

Results

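Autophagy and mTOR pathway genes were examined in the RNA-seq libraries of microglia from mice whose mothers ate a control or a low-sodium diet. The set is a list of 42 mouse genes named for their known roles: the core machinery that builds autophagosomes, the receptors that load cargo into them, the subunits and upstream inputs of the mTOR kinase complexes, and the MiT/TFE transcription factors. Members were found by matching the symbol to the Ensembl identifier, which gave 41 of the 42 genes among the 26789 genes of the table; Atg9a was not analysed here. All 41 averaged 10 or more normalized counts per library and entered the test, which covered 18007 genes in all.

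The study asked how a low-sodium diet of the mother early in gestation changes the pruning of taste nerve terminals in the nucleus of the solitary tract (NST), the first taste relay of the brainstem. Control mice (C57BL/6, P15) came from dams on the control diet. E3–E12 diet mice (C57BL/6, P15) came from dams on the low-sodium diet from E3 to E12 and on standard chow afterwards. Each group had 3 libraries, each from the pooled rostral NST of 6 littermates of 1 litter, so no value belongs to 1 animal. The spread between libraries joins differences between litters with those of dissection and preparation, which cannot be told apart. By the study's methods microglia, the resident macrophages of the brain, were taken with magnetic beads against CD11b, whereas the labels name laser microdissection, so the isolation is stated in 2 ways.

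Autophagy delivers cytoplasm, organelles and aggregates to the lysosome inside a double membrane, the autophagosome. The ULK1 kinase complex starts the process, a class III PI3-kinase complex marks the membrane with PI3P, lipid transfer proteins feed it, and a conjugation machinery attaches ATG8 proteins to it, to which cargo receptors bind. The mTORC1 kinase on the lysosome surface holds back both ULK1 and the MiT/TFE factors when nutrients are plentiful, and the MiT/TFE factors switch on genes of lysosomes and autophagy. Microglia take up debris and synaptic material, and some ATG8 conjugation proteins also act on phagosomes in macrophages.

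The libraries differed among themselves before any comparison of diets. The normalized counts summed to 9671119, 17204618 and 11910787 for replicates 1, 2 and 3 of the controls, against 9407141, 11192984 and 14656956 for those of the E3–E12 diet, and the study's methods give a range of reads for the samples as a whole but no value for each library. Control replicate 2 had 10640 genes listed at 0, against 3459 to 7135 in the other 5 libraries. The 12 microglia markers, among them P2ry12, Tmem119 and Csf1r, were above 0 in every library, as the label of the cells requires. Their summed level was 108568, 535000.4 and 264086 normalized counts for replicates 1, 2 and 3 of the controls, against 107033, 251405 and 332859 for those of the E3–E12 diet, with Csf1r the most abundant (mean 123077). Of the 12, 0 were higher under the diet, and 11 were with control replicate 2 left out. The sum of the 7 endothelial markers was lowest in control replicate 2, at 12687, 4523 and 12274 across the controls, against 11161.5, 6793 and 12554 across the E3–E12 diet libraries. Flt1 was the most abundant of them (mean 3926), and Ly6c1 was listed at 0 in control replicate 2. Of the 7, 5 were lowest in control replicate 2 and 2 were highest there, Cldn5 (1207 normalized counts) and Pecam1 (3154). Control replicate 2 thus had the highest microglia sum and the lowest endothelial sum, and control replicate 1 and E3–E12 diet replicate 1 had the lowest microglia sums. In bulk libraries, fewer cells of a type and less RNA per cell cannot be told apart.

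Across the 41 members no gene differed between diets past the adjusted threshold of 0.1 (0 of 41; 0% of the 18007 genes tested). The test was limma on log2(normalized count + 1) with Benjamini-Hochberg adjustment over all genes tested, two-sided, and each of the 41 members had an adjusted p of 0.999. The study itself used DESeq2 and listed genes both higher and lower under the diet at an adjusted p under 0.1. The absence of such genes here therefore holds for this test on the deposited values. At an unadjusted p under 0.05 there were 0 members, against 327 of all genes (1.82%). Of the members, 20 had a higher and 21 a lower mean log2 level in E3–E12 diet mice, and the median log2 fold change was -0.026, beside 0.087 over all genes tested. Higher and lower refer to the mean log2 level in all counts of genes given here; Gabarap and Rraga, counted as higher, had a lower mean normalized count under the diet (1679 against 1914.5 and 76.5 against 80.1). The log2 fold change lay within 1 of 0 in 38 of the 41 members (92.7%, beside 71.1% of all genes), and the 95% limma interval held 0 in all 41. The median standard error was 0.67 for the members and 0.85 for all genes, and differences of that size were not detectable with 3 libraries in a group. The median log2 level per library was 8.63 to 9.05 for the members, against 6.65 to 7.25 for all genes. Genes of equal level were not compared. The median of the members was 0.039 with quantile normalization, 0.15 with library quality weights, 0.093 when control replicate 2 was left out and 0.19 when E3–E12 diet replicate 1 was, so its sign differed between settings. The median of all genes tested was -0.0034, 0.0043, -0.0042 and 0.036 in those settings, so the members lay under all genes with the 6 libraries as deposited and above them in these alternatives. In other settings they lay under all genes again. With only genes averaging at least 50 normalized counts the gap was smaller, at -0.032 for the members beside 0.016 for all genes. Without control replicate 1 or 3 the members were at -0.048 and -0.084, beside 0.18 and 0.13 for all genes. Without E3–E12 diet replicate 2 or 3 they were at -0.040 and -0.12, beside 0.12 and 0.11.

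**Figure D1:**
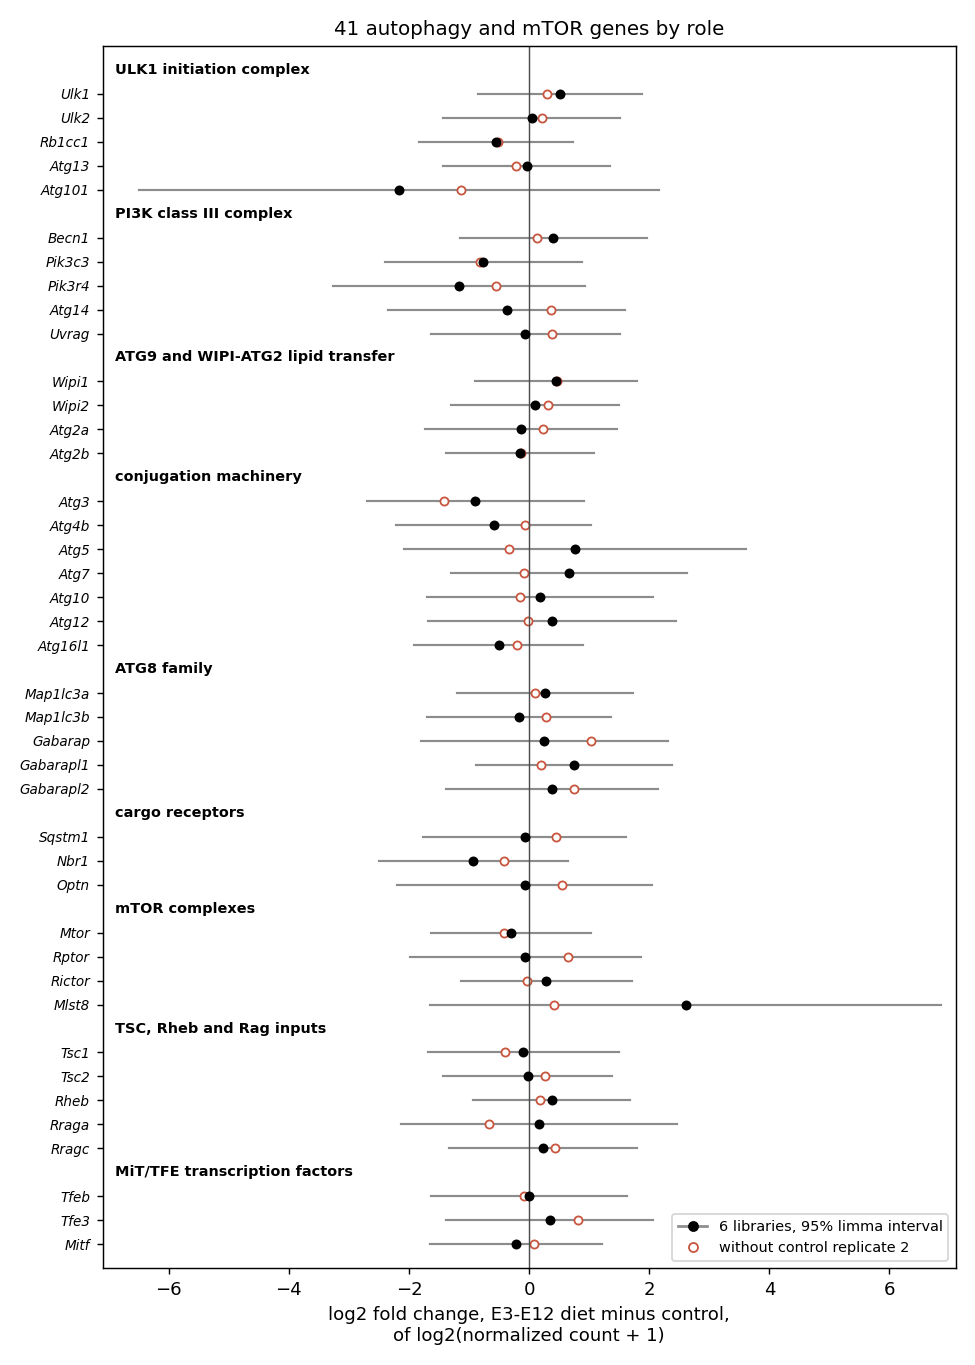
Log2 fold change (E3–E12 diet minus control) of log2(normalized count + 1) for the 41 members in order of role. Black points and grey bars are the values from all 6 libraries with their 95% limma intervals, all of which cross 0; open red circles are the values without control replicate 2, which for Mlst8 moved from 2.61 to 0.42.

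The groups did not overlap in 3 members. All 3 E3–E12 diet values of Mlst8 lay above all 3 control values (1 of 41 members, where 2.99% of all genes did this), and those of Rb1cc1 and Nbr1 lay under them (2 of 41, where 2.91% did). For each of the 3 an exact permutation test, two-sided, gave p = 0.1, and 3 against 3 libraries cannot give a smaller one. With a library left out, between 4 and 9 members did not overlap (9 without E3–E12 diet replicate 1, 7 without E3–E12 diet replicate 2, and 5 without control replicate 1, control replicate 2 or E3–E12 diet replicate 3). The share of all genes also went up then, to between 12.6% and 17.8%. Without E3–E12 diet replicate 1 or 2 the members stood at 21.95% and 17.1%, beside 14.75% and 13.1% of all genes. Without control replicate 1, control replicate 2 or E3–E12 diet replicate 3 they stood at 12.2%, beside 17.8%, 14.4% and 14.4%. Without control replicate 3 they stood at 9.76%, beside 12.6%.

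Control replicate 2 stood at the edge of the range about as often in the members as in all genes tested, being the highest or lowest library for 26 of 41 (63.4%, beside 64.5% of all genes). It was the highest for 17 members (41.5%, beside 26.3% of all genes) and the lowest for 9 (21.95%, beside 38.2%). The 17 were Rb1cc1, Atg101, Pik3r4, Atg14, Uvrag, Wipi2, Atg2a, Atg4b, Atg16l1, Map1lc3b, Gabarap, Sqstm1, Nbr1, Optn, Rptor, Tsc2 and Mitf, and the 9 were Ulk1, Becn1, Atg5, Atg7, Gabarapl1, Rictor, Mlst8, Rheb and Rraga. E3–E12 diet replicate 1 was the lowest library for 13 members (31.7%, beside 16.5% of all genes) and control replicate 1 was the highest for 0 of the 41 (0%, beside 12.9% of all genes). The 41 genes together took 0.318%, 0.341% and 0.263% of the normalized counts of control replicates 1, 2 and 3 and 0.293%, 0.356% and 0.311% of those of E3–E12 diet replicates 1, 2 and 3, so their shares of the total overlapped between diets. The median standard deviation of the log2 level within the control group was 0.69 for the members and 1.05 for all genes, and within the E3–E12 diet group 0.51 and 0.81. The members had higher levels than most genes, and the spread at equal level was not compared.

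The ULK1 initiation complex is the kinase assembly that receives the signal from mTORC1 and AMPK. Under the E3–E12 diet 2 of its 5 genes had a higher mean log2 level and 3 a lower one (median log2 fold change -0.038, and -0.22 without control replicate 2). Rb1cc1 encodes FIP200, the large scaffold of the complex, on chromosome 1 (GRCm38 chr1:6206197-6276648, plus strand, ENSMUSG00000025907). It had 1693, 1744 and 1544 normalized counts for replicates 1, 2 and 3 of the controls, against 874, 1373 and 1203.5 for those of the E3–E12 diet. The controls lay close together and above every E3–E12 diet library, of which replicate 1 was the lowest. The means were 1660.2 ± 104 and 1150.3 ± 254 (SD, n = 3 libraries per group), and the log2 fold change was -0.55, with a 95% interval from -1.83 to 0.73. It stayed between -0.69 and -0.37 whichever library was left out, and 7.60% of its 50-base exon windows also occur in other annotated genes.

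Atg101, which stabilizes ATG13 in the complex, varied more than any other member of its complex. It had 30.3, 472 and 94.7 normalized counts across the controls, against 44.1, 177 and 0.946 across the E3–E12 diet libraries (replicates 1, 2 and 3 in that order, as in all lists of values here). Control replicate 2 was the highest library and E3–E12 diet replicate 3 was close to 0, and the groups overlapped (log2 fold change -2.17, standard error 1.81). Without control replicate 2 its log2 fold change was -1.13, and without E3–E12 diet replicate 3 it was -0.33. Ulk2, a kinase closely related to ULK1, had the highest level per length of the complex, at 652 ± 200 normalized counts per kb of exon against 156 ± 48.2 for Ulk1 (SD over 6 libraries), and was above Ulk1 in 6 of 6 libraries. Its values were 3476, 4635 and 3069.8 normalized counts across the controls, against 2180.5, 4597 and 5413 across the E3–E12 diet libraries, which overlapped (log2 fold change 0.045, and from -0.21 to 0.44 with 1 library left out). Ulk1 and Atg13, the adaptor of the kinase, had log2 fold changes between -0.038 and 0.51.

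The class III PI3-kinase complex makes the lipid PI3P on the growing membrane. Of its 5 genes, 1 was higher and 4 were lower under the diet (median log2 fold change -0.37), and without control replicate 2 the median was 0.13 with 3 higher. Pik3r4, the regulatory subunit VPS15, had 158, 528 and 131 normalized counts across the controls, against 112, 206 and 40.7 across the E3–E12 diet libraries. Control replicate 2 was again the highest and E3–E12 diet replicate 3 the lowest, and E3–E12 diet replicate 2 lay above the other controls (log2 fold change -1.17, standard error 0.88, -0.55 without control replicate 2, or -0.54 with replicate 3 of the E3–E12 diet left out). Atg14, the subunit that directs the kinase to autophagosome formation, had 133, 883 and 265 normalized counts across the controls, against 175, 313 and 261 across the E3–E12 diet libraries. Its E3–E12 diet values lay inside the range of the controls, and the log2 fold change was -0.37, or 0.37 without control replicate 2. Becn1, Pik3c3 and Uvrag, which encode the scaffold Beclin 1, the catalytic subunit and the endosomal subunit, had log2 fold changes between -0.76 and 0.40. Without control replicate 2 these were 0.13 for Becn1, -0.81 for Pik3c3 and 0.38 for Uvrag, which stood at -0.062 with all libraries. Becn1 shares 43.9% of its exon bases with Cntd1 and Uvrag shares 17.6% with Gm45187, so their counts are uncertain.

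Of the lipid transfer group, the 4 genes tested were the PI3P-binding proteins Wipi1 and Wipi2 and the lipid transfer proteins Atg2a and Atg2b, with 2 higher and 2 lower (median log2 fold change -0.017); 3 were higher without control replicate 2 (median 0.27). Atg2a had the highest level per length, at 164 ± 69.6 normalized counts per kb of exon against 78.1 ± 19.4 for Wipi2 (SD over 6 libraries), and was above it in 6 of 6 libraries. It had 878, 2045 and 1021 normalized counts across the controls, against 657, 1201 and 1755 across the E3–E12 diet libraries. E3–E12 diet replicate 1 was the lowest library and control replicate 2 the highest, and the log2 fold change was -0.13 (0.24 without control replicate 2). The other 3 had log2 fold changes between -0.15 and 0.44. Atg2b was the steadiest of the 40 members without a value of 0, with a highest library only 1.23 times its lowest.

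The conjugation machinery joins ATG12 to ATG5 and ATG8 proteins to phosphatidylethanolamine. Its 7 genes were 4 higher and 3 lower (median log2 fold change 0.17), but 0 of the 7 were higher without control replicate 2 (median -0.15). Atg3, the E2-like enzyme of ATG8 lipidation, had 249.7, 91.2 and 292 normalized counts across the controls, against 55.5, 181 and 101 across the E3–E12 diet libraries. Control replicate 2 fell among the E3–E12 diet values, and the other controls lay above all of them (log2 fold change -0.90, standard error 0.76, -1.42 without control replicate 2, or -0.47 with replicate 1 of the E3–E12 diet left out). Atg5, the acceptor of ATG12, had 196, 17.9 and 178 normalized counts across the controls, against 94.1, 71.9 and 469 across the E3–E12 diet libraries. Its lowest value was in control replicate 2 and its highest in E3–E12 diet replicate 3, and the log2 fold change of 0.77 (standard error 1.19) was -0.34 when control replicate 2 was left out and -0.066 when E3–E12 diet replicate 3 was. Atg5 led the group per length, at 72.7 ± 68.1 normalized counts per kb of exon, but was above Atg4b (59.7 ± 37.8), the next gene, in 3 of 6 libraries. The protease Atg4b, the E1-like Atg7, the E2-like Atg10, the ubiquitin-like Atg12 and Atg16l1, the scaffold that places the conjugation on the membrane, had log2 fold changes between -0.59 and 0.66. Atg12 had the lowest level per length of all 41 members, at 13.2 normalized counts per kb of exon, in the 20.3 percentile of all genes tested.

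The ATG8 family holds the ubiquitin-like proteins that coat the autophagosome. Under the diet 4 of its 5 genes were higher (median log2 fold change 0.26), and 5 of 5 were without control replicate 2 (median 0.28); 0 of the 5 had an unadjusted p under 0.05. Gabarap had 529.9, 4033 and 1181 normalized counts across the controls, against 1671, 1172 and 2194 across the E3–E12 diet libraries. The controls spread wider than the E3–E12 diet libraries and enclosed them, so that its log2 fold change was 0.26 (standard error 0.86), 1.04 without control replicate 2 and -0.42 without control replicate 1. Per length Gabarap had the highest mean of the whole set, at 974 ± 666 normalized counts per kb of exon. This lay in the 97.6 percentile of all genes tested. In control replicate 1 and E3–E12 diet replicate 2 Gabarap was under Sqstm1 (287 against 540 and 636 against 1052). It was above Map1lc3b, the next of the family at 293 ± 132, in 6 of 6 libraries.

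Map1lc3b, which encodes the LC3 protein most used as an autophagosome marker, had 1738, 4106 and 1461.5 normalized counts across the controls, against 1503, 2074 and 2349 across the E3–E12 diet libraries. Again the E3–E12 diet values lay inside the range of the controls (log2 fold change -0.17, but 0.0011 with quantile normalization, 0.41 with library quality weights and 0.28 without control replicate 2). Map1lc3a, its close relative, had 192, 138 and 203 normalized counts across the controls, against 124, 297 and 255 across the E3–E12 diet libraries, which were both the lowest and the highest (log2 fold change 0.26, and 0.093 without control replicate 2). Gabarapl1 had 312, 98.9 and 302 normalized counts across the controls, against 297, 317 and 470.4 across the E3–E12 diet libraries. Control replicate 2 stood below the other 5 libraries, and the log2 fold change of 0.74 (standard error 0.68) was 0.20 without it; 28.3% of its exon bases lie over 1700101I11Rik. Gabarapl2 had 93.8, 286 and 187 normalized counts across the controls, against 111, 316 and 319.6 across the E3–E12 diet libraries, where replicate 1 fell among the controls (log2 fold change 0.38, 0.75 without control replicate 2 and -0.048 without control replicate 1). Of its 50-base windows 12.2% also occur elsewhere, in Gm3724, Gm6051 and Gm5829, and 6.01% of those of Map1lc3b in Gm6055, Gm12727 and Gm6054, so reads from these copies cannot be told apart where they match.

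The cargo receptors bind ubiquitin on one side and ATG8 proteins on the other. All 3 had negative log2 fold changes (median -0.075), and 2 of the 3 were higher without control replicate 2 (median 0.45). Nbr1, a receptor for aggregates and peroxisomes on chromosome 11 (GRCm38 chr11:101552149-101581951, plus strand, ENSMUSG00000017119), had 752, 2426 and 924 normalized counts across the controls, against 626, 556 and 699 across the E3–E12 diet libraries. Every control lay above every E3–E12 diet library, by a narrow gap except for control replicate 2. The means were 1367 ± 921 and 627 ± 71.8 (SD, n = 3 libraries per group), and the log2 fold change was -0.93, with a 95% interval from -2.50 to 0.64, and -0.42 without control replicate 2. None of its exon bases overlap another annotated gene (0%).

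Sqstm1 encodes p62, the receptor that is itself degraded by autophagy, and was the second most abundant member per length after Gabarap, at 797 ± 423 normalized counts per kb of exon (SD over 6 libraries). It had 1811, 5165 and 1630.4 normalized counts across the controls, against 1592.5, 3531 and 2321 across the E3–E12 diet libraries. The lowest values of the groups were alike and control replicate 2 was the highest of all (log2 fold change -0.075, but 0.11 with quantile normalization, 0.60 with library quality weights and 0.45 without that library); 17.3% of its exon bases lie over Mrnip. Optn, a receptor for mitochondria and bacteria, had a log2 fold change of -0.075 as well, but 0.55 without control replicate 2. Its highest library was 7.99 times its lowest.

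Of the mTOR complexes, the kinase Mtor, the mTORC1 scaffold Rptor, the mTORC2 scaffold Rictor and the shared subunit Mlst8 were tested, 2 of them higher and 2 lower (median log2 fold change 0.11, and 0.19 without control replicate 2). Mlst8 (GRCm38 chr17:24473551-24479078, minus strand, ENSMUSG00000024142) had 88.9, 0 and 101 normalized counts across the controls, against 134, 123 and 124 across the E3–E12 diet libraries. The E3–E12 diet libraries lay close together above the controls, and control replicate 2 was listed at 0, which is the only value of 0 among the 41 members. On the log2 scale that library weighs heavily: the log2 fold change was 2.61 (standard error 1.78, 95% interval from -1.64 to 6.86) and 0.42 without it. The unadjusted limma p of Mlst8 was 0.188, the smallest of the members, and 22.5% of its exon bases lie over Bricd5.

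Rptor had 2641.5, 10836 and 2298 normalized counts across the controls, against 2436.5, 4176 and 5638 across the E3–E12 diet libraries. Control replicate 2 was the highest by far, and of the other 5 libraries E3–E12 diet replicates 2 and 3 were the highest (log2 fold change -0.066, but 0.14 with quantile normalization, 0.79 with library quality weights and 0.65 without control replicate 2). Per length Rptor stood at 347 ± 244 normalized counts per kb of exon and was above Mtor, at 147 ± 34.2, in 5 of 6 libraries. Mtor and Rictor had log2 fold changes of -0.30 and 0.29, or -0.42 and -0.039 without control replicate 2.

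**Figure D2:**
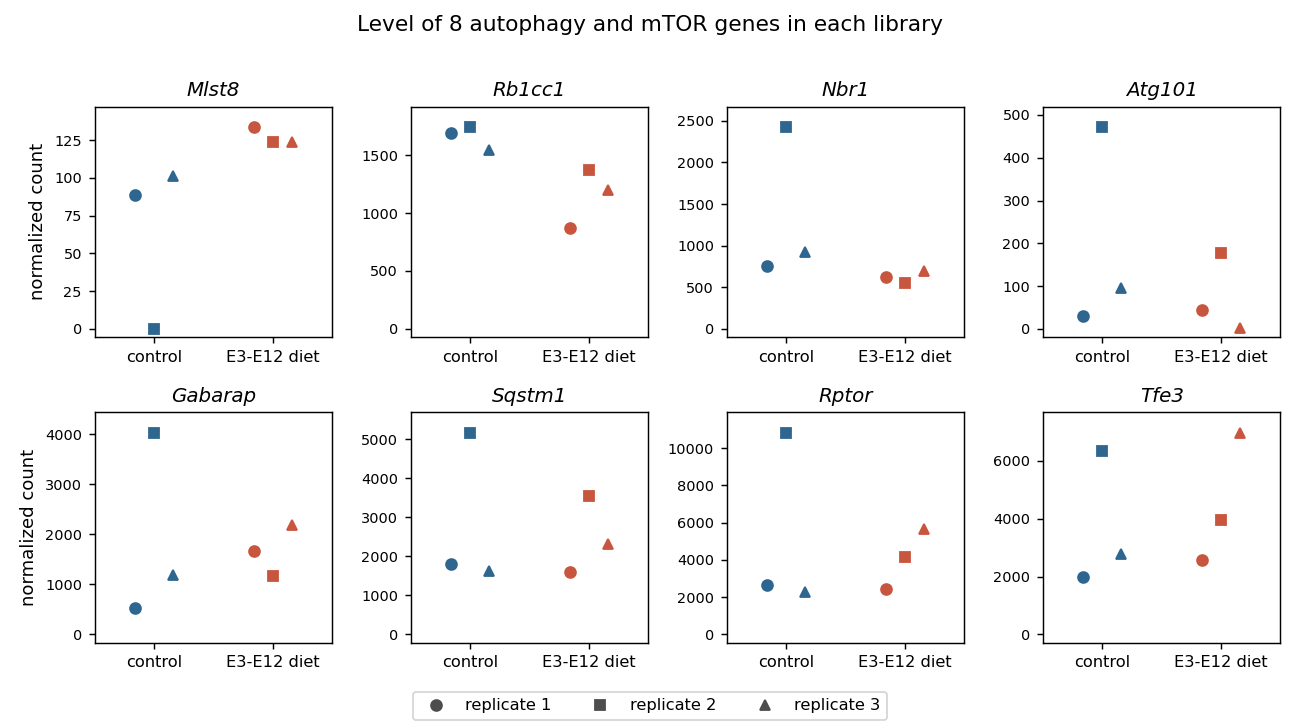
Normalized counts of 8 members in each library (vertical axes, linear and on a separate scale for each gene). Controls are in blue and E3–E12 diet libraries in red, with a symbol for each replicate number. Mlst8, Rb1cc1 and Nbr1 do not overlap between groups; in Gabarap, Sqstm1 and Rptor control replicate 2 (4033, 5165 and 10836) is the highest library.

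Upstream of mTORC1, the TSC proteins switch off the small GTPase Rheb and the Rag GTPases report amino acids. The 5 genes of this group were 3 higher and 2 lower (median log2 fold change 0.17, and 0.18 without control replicate 2). Rragc, which encodes RagC, had the highest level per length of the group, at 363 ± 138 normalized counts per kb of exon against 138 ± 41.8 for Tsc2 (SD over 6 libraries), and was above Tsc2 in 6 of 6 libraries. It had 850.4, 1410.1 and 968 normalized counts across the controls, against 639, 1779 and 1636 across the E3–E12 diet libraries. E3–E12 diet replicate 1 was the lowest of all and the other E3–E12 diet libraries the highest (log2 fold change 0.23, and -0.040 without E3–E12 diet replicate 2). Tsc1, Tsc2, Rheb and Rraga had log2 fold changes between -0.095 and 0.38, and Rraga had its lowest value, 17.8 normalized counts, in control replicate 2. Without that library the log2 fold changes were -0.40 for Tsc1, 0.26 for Tsc2, 0.18 for Rheb and -0.67 for Rraga, so those of Tsc2 and Rraga changed sign.

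The MiT/TFE factors are the transcription factors that mTORC1 keeps in the cytoplasm. Tfeb had 230.3, 269.5 and 469 normalized counts across the controls, against 231, 208 and 609 across the E3–E12 diet libraries. Replicate 3 was the highest library of each group and the groups overlapped (log2 fold change 0.0028, 95% interval from -1.63 to 1.64, and -0.093 without control replicate 2). Tfe3 had 1969.7, 6312 and 2771.5 normalized counts across the controls, against 2561, 3946 and 6964 across the E3–E12 diet libraries. Its highest values were in control replicate 2 and E3–E12 diet replicate 3 (log2 fold change 0.34, 0.82 without control replicate 2, or -0.034 with replicate 3 of the E3–E12 diet left out). Mitf had 249, 494 and 278 normalized counts across the controls, against 202, 293 and 369.8 across the E3–E12 diet libraries, which overlapped (log2 fold change -0.21, and 0.088 without control replicate 2). Per length Tfe3 was the most abundant of the 3, at 441 ± 225 normalized counts per kb of exon against 59.3 ± 29.0 for Tfeb and 50.7 ± 16.8 for Mitf (SD over 6 libraries), and was above Tfeb in 6 of 6 libraries.

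MiT/TFE proteins bind E-box letters, and these were looked for in the promoters of the members. RefSeq promoters (GRCm38.p6, 250 bases before to 50 after the gene start) were found for 36 of the 42 members; Rb1cc1, Becn1, Pik3c3, Atg12, Atg16l1 and Map1lc3a had no entry. The letters CACGTG, the same on both strands, were in the promoters of 6 of the 36 (Atg3, Atg5, Atg7, Atg14, Rheb and Rragc; 16.7%), beside 8.09% of all genes with a promoter and 7.15% of all promoters. The longer form GTCACGTG, which holds the first motif, was on either strand in 4 of the 36 (Atg3, Atg7, Atg14 and Rheb; 11.1%), beside 2.55% of all genes with a promoter and 2.25% of all promoters. In Atg3 it occurred in 2 places. Atg14 and Rheb hold it where GENCODE M21 places an exon of the gene itself. The stretches that lie outside exons are given with the motif in capitals, to let the E-box of the lipidation enzymes be read in its context; those of Atg3 lie 96 and 73 bases before its RefSeq start (chr16:45158726-45158747 and chr16:45158749-45158770, plus strand, outside any annotated gene), and that of Atg7 lies 134 bases before its start (chr6:114670955-114670976, plus strand, in an intron within the span of Atg7).
Atg3, first place: tccttttGTCACGTGtcctggg
Atg3, second place: gagtcgaGTCACGTGaggcctt
Atg7: attggtgGTCACGTGtgcagta
The 4 genes with the longer motif did not share a direction: the log2 fold changes were -0.90 for Atg3, 0.66 for Atg7 (-0.081 without control replicate 2), -0.37 for Atg14 and 0.38 for Rheb, each with an adjusted p of 0.999 (limma, Benjamini-Hochberg). A match is a description of these letters and was not tested for binding.

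The members lie on 19 chromosomes, with 7 of the 41 on chromosome 11 (Ulk2, Becn1, Wipi1, Gabarap, Sqstm1, Nbr1 and Rptor). Of those 7, 4 had a positive and 3 a negative log2 fold change. On the scale of level per length, 36 of the 41 members were above the median of all genes tested and 16 were above the 75 percentile, with a median percentile of 66.3. By the mean over the 6 libraries, the order from the top was Gabarap, Sqstm1, Ulk2, Tfe3, Rragc and Rptor. The lowest were Atg12, Pik3r4, Mlst8, Atg10 and Uvrag. Atg14 and Pik3c3, which lead the PI3-kinase genes at 78.3 ± 63.6 and 78.2 ± 31.3 normalized counts per kb of exon, did not differ beyond their spread, with Atg14 above in 3 of 6 libraries.

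Genes that work beside the members were followed in 7 lists, with 129 of their 132 genes tested; Lamtor5 and Samtor were not analysed here, and Sesn3 was under the filter on low values. No gene of these lists passed the adjusted threshold (0 of 129), 1 had an unadjusted p under 0.05 (limma; 1.82% of all genes tested did), and the groups did not overlap in 5 (5.90% of all genes did not). Both counts are a smaller share than that of all genes, so the genes named here are a description. Of the 129, 60 were higher and 69 lower under the diet (median log2 fold change -0.057), and 77 were higher without control replicate 2 (median 0.14). Sesn3, a stress-induced inhibitor of mTORC1, was listed at 0 in all 3 controls and E3–E12 diet replicate 1 while replicates 2 and 3 of the E3–E12 diet reached 6.74 and 5.68 normalized counts.

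The gene with the smallest p was Tex264, a receptor that brings endoplasmic reticulum to the autophagosome. It had 41.9, 21.7 and 82.7 normalized counts across the controls, against 99.8, 219 and 144 across the E3–E12 diet libraries. Every E3–E12 diet library was above every control, and the log2 fold change was 1.77 (standard error 0.71) and stayed between 1.30 and 2.24 whichever library was left out. The unadjusted limma p was 0.0436 and the adjusted p 0.999, and an exact permutation test, two-sided, gave p = 0.1, the smallest possible. Tex264 belongs to the 15 other selective receptors, of which 6 were higher and 9 lower (median -0.25), while 9 were higher without control replicate 2 (median 0.21). In that list Fundc1, a mitophagy receptor, had 74.3, 3.08 and 219.8 normalized counts across the controls, against 24.5, 259.5 and 175 across the E3–E12 diet libraries, with control replicate 2 near 0 and the groups overlapping (log2 fold change 1.37, and -0.29 without control replicate 2). The other genes without overlap were chosen after their values were seen: Calcoco1 (log2 fold change 0.91), Atg16l2 (0.93) and Prkab2 (0.86) lay higher in every E3–E12 diet library, and Tax1bp1 (-0.59) lower.

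Among the 15 other ATG and early autophagy genes, 8 were higher and 7 lower (median log2 fold change 0.086), while 4 were higher without control replicate 2 (median -0.48). Sh3glb1, a membrane-curving partner of the PI3-kinase complex, had 51.8, 647 and 1183 normalized counts across the controls, against 0, 88.7 and 443 across the E3–E12 diet libraries. Replicate 1 was the lowest library of each group (log2 fold change -3.33, standard error 2.36, and -0.78 without E3–E12 diet replicate 1). Wdr45, a WIPI family member, was low throughout, with 25.3, 0 and 48.9 normalized counts across the controls, against 25.7, 18.1 and 33.3 across the E3–E12 diet libraries (log2 fold change 1.24, and -0.48 without control replicate 2), and 24.7% of its exon bases lie over Gm45208.

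For fusion of autophagosomes with lysosomes, 7 of 13 genes were higher and 6 lower (median 0.11), and 10 were higher without control replicate 2 (median 0.25). Vps11, of the core that tethers the membranes, had 501, 448 and 418 normalized counts across the controls, against 124, 566 and 139 across the E3–E12 diet libraries. E3–E12 diet replicates 1 and 3 lay below the controls and replicate 2 above them (log2 fold change -1.08, -0.69 without E3–E12 diet replicate 1 and -1.78 without E3–E12 diet replicate 2). Vps41, a subunit of the HOPS tether, had 484, 221 and 589.6 normalized counts across the controls, against 373, 949 and 759 across the E3–E12 diet libraries (log2 fold change 0.70, and 0.27 without control replicate 2), which overlapped as well.

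Of the 23 Ragulator, GATOR, folliculin and sensor genes tested, 10 were higher and 13 lower (median -0.23), and 11 were higher without control replicate 2 (median -0.088). Seh1l, of the GATOR2 complex, had 70.4, 47.7 and 170.05 normalized counts across the controls, against 9.08, 65.2 and 57.8 across the E3–E12 diet libraries, with E3–E12 diet replicate 1 the lowest (log2 fold change -1.31, and -0.43 without that library). Nprl2, of the GATOR1 complex that restrains mTORC1, had 50.4, 1.97 and 41.8 normalized counts across the controls, against 190.1, 12.4 and 24.6 across the E3–E12 diet libraries (log2 fold change 1.11, -0.22 without control replicate 2, or -0.016 with replicate 1 of the E3–E12 diet left out).

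Of the 23 other mTOR subunits and upstream kinases, 10 were higher and 13 lower (median -0.12). Without control replicate 2, 15 of the 23 were higher (median 0.16), and 0 of the 23 had an unadjusted p under 0.05 (limma) in all 6 libraries. Of the 10 mTORC1 effectors, 7 were higher and 3 lower (median 0.25), and 5 were higher without control replicate 2 (median 0.15). Eif4ebp1, the translation repressor that mTORC1 phosphorylates, had 409, 608 and 302 normalized counts across the controls, against 717, 490.1 and 546 across the E3–E12 diet libraries, which overlapped (log2 fold change 0.45, 0.71 without control replicate 2 and 0.21 without control replicate 3). Grb10, an adaptor that mTORC1 stabilizes, had 620.1, 2.81 and 89.3 normalized counts across the controls, against 897, 98.4 and 139.9 across the E3–E12 diet libraries. Replicate 1 was the highest library of each group (log2 fold change 1.96, and -0.026 without control replicate 2).

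Of the 30 lysosomal targets of TFEB, 12 were higher and 18 lower under the diet (median log2 fold change -0.14), and 23 were higher without control replicate 2 (median 0.21). Their summed level was 71985, 248624 and 165683 normalized counts across the controls, against 77664, 157469.9 and 226477 across the E3–E12 diet libraries, with Ctsd, the protease cathepsin D, the most abundant (mean 57253), though 34.4% of its exon bases lie over Gm49369. Control replicate 1 and E3–E12 diet replicate 1 were the lowest and control replicate 2 the highest, the same libraries that were lowest and highest in summed microglia markers; the part of those markers in the sums was not tested. The lists share 1 gene. The members as a whole spread less, with sums of 30713, 58729 and 31313 normalized counts across the controls, against 27608, 39883 and 45543 across the E3–E12 diet libraries. Atp6v1a, a subunit of the proton pump, had 1652, 311 and 1834 normalized counts across the controls, against 1855, 1665 and 2136 across the E3–E12 diet libraries (log2 fold change 0.93, and 0.11 without control replicate 2). Tfec, a relative of TFEB, had 24.8, 75.2 and 13.5 normalized counts across the controls, against 56.7, 0 and 9.47 across the E3–E12 diet libraries (log2 fold change -1.86, standard error 1.51). Without E3–E12 diet replicate 2, where Tfec was listed at 0, its log2 fold change was -0.32, and without control replicate 2 it was -1.20. The GTCACGTG letters were in the promoters of 10 of the 23 genes of this list with an entry (43.5%), which holds known targets of a factor that binds them.

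**Figure D3:**
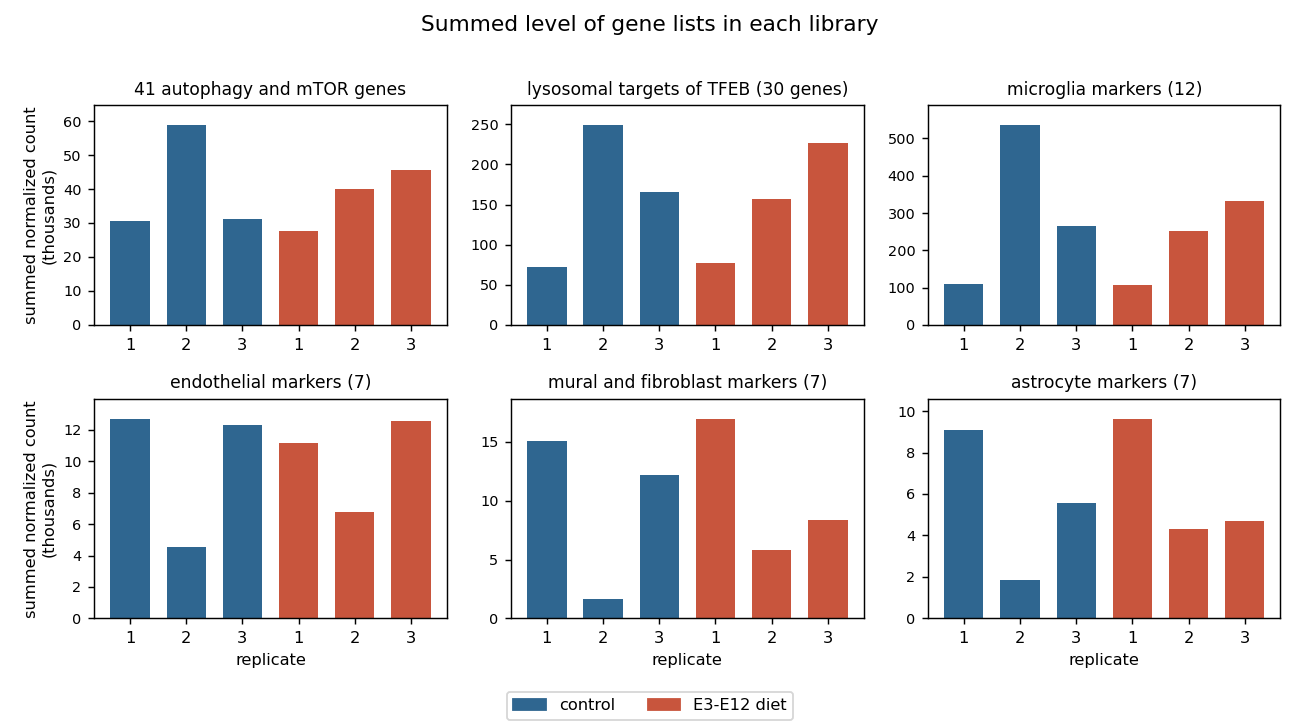
Summed normalized counts (linear axes from 0, scaled as labelled) of 6 gene lists in each library, controls in blue and E3–E12 diet libraries in red. The 41 members, the lysosomal genes and the microglia markers have their highest sums in control replicate 2, where the sums of the endothelial, mural and astrocyte markers are lowest (4523, 1652 and 1832 normalized counts).

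The markers of other cells are given beside these values, and their part in the member levels was not tested. The 7 mural and fibroblast markers summed to 15071, 1652 and 12222 normalized counts across the controls, against 16938, 5790.5 and 8399 across the E3–E12 diet libraries, with Rgs5 the most abundant and none at 0; Col1a2 (718 normalized counts) was higher in control replicate 2 than in the other controls. The 7 astrocyte markers summed to 9086, 1832 and 5586 across the controls, against 9617, 4293 and 4705 across the E3–E12 diet libraries, with Slc1a2 the most abundant, and Gfap and Aldh1l1 were listed at 0 in control replicate 2, where Slc1a3 (1420.1 normalized counts) was above the other controls. The 9 neuron markers summed to 1951, 822 and 1086 and to 2255, 1463 and 904, with Snap25 the most abundant; Syt1, Rbfox3 and Stmn2 were listed at 0 in control replicate 2 and Slc17a6 in replicate 3 of both groups. In control replicate 2, Gad1 (493 normalized counts) was the highest of the 6 libraries and Nefl (131) was above the other controls. Control replicate 2, the library in which Mlst8 was listed at 0, had the lowest sum of each of these 3 lists.

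In the remaining lists, control replicate 2 had the highest sum of the border macrophage and of the neutrophil and monocyte markers and lay between other libraries in the rest. The 9 oligodendrocyte lineage markers summed to 33333, 14077 and 4650.5 normalized counts across the controls, against 15928, 20592 and 5467 across the E3–E12 diet libraries, led by Mbp, and Mag was listed at 0 in control replicate 3 and all 3 E3–E12 diet libraries. The 6 choroid plexus and ependyma markers summed to 7186, 567 and 18764 and to 40238, 89.4 and 582, led by Ttr, with Folr1 at 0 in control replicate 2 and Aqp1 and Clic6 in E3–E12 diet replicate 2. E3–E12 diet replicate 1, the lowest library for 13 members, was the highest in these. The 6 border macrophage markers summed to 5360.0, 19951 and 7379.7 and to 5220.3, 8200.5 and 8514, led by Mrc1. Pf4 of that list, singled out after its values were seen, lay under the controls in all 3 E3–E12 diet libraries, as 2.91% of all genes did (log2 fold change -2.60, adjusted p = 0.999 from limma). Of the 6, 1 was higher and 5 lower (median -0.44), while 4 were higher without control replicate 2 (median 0.16). The 6 neutrophil and monocyte markers summed to 616.5, 3102 and 461 and to 730.1, 713 and 655, led by S100a9; Ly6g was listed at 0 in control replicate 3 and E3–E12 diet replicates 2 and 3, and Ly6c2 was not analysed here. The 5 erythroid markers summed to 169.5, 11.2 and 219 and to 54.1, 2.31 and 95.5, led by Hba-a2, with Hba-a1 and Hba-a2 at 0 in control replicate 2 and E3–E12 diet replicate 2, Alas2 at 0 in the latter and Hbb-bt in replicate 1 of both groups and E3–E12 diet replicate 2.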

How the data were processed

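RNA was sequenced from 6 libraries of microglia of the rostral NST, grouped by the titles of the samples as 3 control and 3 E3–E12 diet libraries. The authors deposited 1 table of normalized counts for 26789 Ensembl genes, a signal on a linear scale, and its title names sva, whose role is not given in the sources used here. The submitters' processing notes name FastQC, STAR, featureCounts, DESeq2 and GRCm38, without versions or roles. Whole reads could not be recovered from the values, so no count test was run, and the study's methods give a range of reads for all samples but not the depth of each library; normalization can also hide differences in total RNA. Symbols were matched for 26507 genes.

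Genes averaging 10 or more normalized counts per library were tested with limma (version 3.58.1, R 4.3.3; lmFit, eBayes) on log2(normalized count + 1), E3–E12 diet minus control, with Benjamini-Hochberg adjustment and a threshold of 0.1, after the threshold of the study. Fold changes are on this scale, where the pseudocount draws low values together, but 1 library at or near 0 can make them larger than the fold between group means. The code was tested on simulated data. Sums, exon overlap, 50-base windows and promoter motifs were computed in Python 3.11.15 (numpy 2.4.6, pandas 2.3.3, matplotlib 3.10.9) with GENCODE M21 exons; levels per kb divide by the union of exon bases. Windows count as shared where the same 50 bases occur in exons of another gene.

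The members and lists were chosen with earlier results of these data known. Values in every library are given for the member of each role with the highest level per kb, members whose groups did not overlap, members with an unadjusted p under 0.05, the 5 members with the largest absolute log2 fold change, members at 0 in 2 or more libraries or under the filter, and the ATG8 family and MiT/TFE factors in full. For the other pathway genes they are given for an unadjusted p under 0.05 or the 2 largest absolute log2 fold changes of a list, except some genes that are not reported here. Alternatives were a pseudocount of 10, no filter, a mean of at least 50, median-of-ratios rescaling, quantile normalization, library quality weights, the replicate number as a block, the first residual component as a covariate, and each library left out in turn. A variance trend on mean level, and the non-overlap counts under other settings, were added after seeing the data. P-values measure the spread between libraries, each from its own litter, where litter and handling of the sample cannot be told apart.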

Additional observations from a re-analysis of the deposited data

How the results depend on the processing

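By limma, 0 genes passed the adjusted threshold of 0.1 in 6 libraries, under every alternative except a mean of at least 50 (1 gene) and library quality weights (5 genes); the members were not among those past it, and the lowest adjusted p of a named gene under any alternative was 0.561. Genes with an unadjusted p under 0.05 numbered 327, against 207 with a mean of at least 50, 491 with quantile normalization, 1205 with library quality weights, 1423 with the first residual component as a covariate, 268 with a variance trend on mean level, and 276 to 551 with each library left out (551 without control replicate 1). With that covariate 1 member, Mlst8, had an unadjusted p under 0.05, and 0 had one under the other alternatives. The median log2 fold change of the members was 0.15 with library quality weights and -0.12 to 0.19 with each library left out. With a library left out 4 to 9 of the 41 members did not overlap, beside 12.6% to 17.8% of all genes. The share of members was above that of all genes without E3–E12 diet replicate 1 or 2, and under it without any other library. Of 523 log2 fold changes of 35 named genes under the alternatives, 477 kept their direction and 46 did not, while 17 genes kept it throughout. The library quality weights were 0.993, 0.206 and 5.20 for control replicates 1, 2 and 3 and 0.557, 1.40 and 1.21 for those of the E3–E12 diet, so control replicate 3 set most of the control level in that setting. Of the 41 members, 15 changed sign with library quality weights. Among the 35 named genes, the log2 fold changes with another sign were then 0.092 for Atg14, 0.29 for Atg2a, -0.11 for Atg5, -0.19 for Atg7, 0.41 for Map1lc3b, 0.60 for Sqstm1, 0.79 for Rptor, -0.37 for Tfeb, 0.11 for Mitf, -0.65 for Wdr45, -0.14 for Fundc1 and -0.56 for Nprl2. Quantile normalization changed the sign of 11 of the 41 members. For the named genes among them the values were 0.0011 for Map1lc3b, 0.11 for Sqstm1, 0.14 for Rptor and -0.047 for Tfeb. Leaving out a library changed the sign of 3 (control replicate 3) to 16 (control replicate 2) of the 41 members. With each library left out, log2 fold changes ran from -0.21 to 0.44 for Ulk2, -0.99 to 0.37 for Atg14, -0.46 to 0.25 for Atg2a, -0.34 to 1.35 for Atg5, -0.081 to 1.04 for Atg7, -0.46 to 0.28 for Map1lc3b, -0.42 to 1.04 for Gabarap, -0.048 to 0.89 for Gabarapl2, -0.38 to 0.45 for Sqstm1, -0.47 to 0.65 for Rptor, -0.040 to 0.70 for Rragc, -0.49 to 0.31 for Tfeb, -0.034 to 0.82 for Tfe3, -0.42 to 0.088 for Mitf, -0.48 to 2.34 for Wdr45, -0.29 to 2.59 for Fundc1, -0.22 to 1.90 for Nprl2 and -0.026 to 3.65 for Grb10. The cause was not tested. With the replicate number as a block, 0 genes passed the threshold and 468 had an unadjusted p under 0.05. Deviations of libraries with the same number correlated at 0.26, 0.0348 and 0.142. Control replicates 1 and 3 correlated best with the E3–E12 diet library of the same number, and control replicate 2 with E3–E12 diet replicate 3 (0.0869). Libraries with different numbers correlated between -0.251 and 0.0869. These values do not settle whether the numbers pair the libraries, and the main test did not pair them. The methods of the study give a range of reads for all samples, but the normalized counts could not be turned back into reads of each library, so no limit from counting error is given.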
